A study of Mus musculus and Rattus norvegicus with 4 samples.

Results

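The regions described here are the MEF2A peaks of C2C12 cells that lie in gene deserts, the long stretches of the mouse genome with no protein-coding gene nearby. A peak was taken when it was more than 100 kb from every protein-coding span of the RefSeq annotation and neither overlapped nor lay within 5 kb of a long noncoding RNA (lncRNA) gene. This gave 367 of the 2797 C2C12 peaks (13.1%, exact binomial 95% interval 11.9 to 14.4%). No measured value entered the choice. The distance condition alone took 491 peaks, and the lncRNA condition then removed 124 of them.

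C2C12 is a mouse skeletal myoblast line, and these cells had spent 48 h in low-serum medium with horse serum, which starts their differentiation into myotubes. MEF2A was mapped with ChIP-exo, in which an exonuclease trims the immunoprecipitated DNA towards the edges of the bound protein. The series holds 4 libraries, with 1 library per group: MEF2A and normal rabbit IgG, each in C2C12 cells and in rat cardiomyocytes. The C2C12 MEF2A peak list is used here, which gives the position of each peak with its score but no read counts, so depth is unknown. The cell type could not be checked against marker genes, because the list holds no expression values. Peaks of 1 library are not replicates, so comparisons between groups of peaks are descriptions without a test, and binomial intervals cover counting error only.

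MEF2A belongs to the myocyte enhancer factor 2 family, whose MADS and MEF2 domains bind an A/T-rich element in the control regions of muscle genes. MEF2 proteins act together with MyoD family factors in skeletal muscle, are restrained by class IIa histone deacetylases, and respond to calcium and p38 signalling. Gene deserts often border genes for developmental regulators, and some contain enhancers that act on a promoter far away. The flanking genes named below are the nearest protein-coding spans on the lower-coordinate (left) and higher-coordinate (right) side. Lying next to a peak is no evidence of regulation by it.

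No file used here holds the letters of the peaks, so their sequence is not shown. The sequences that can be given are those of annotated microRNAs beside desert peaks, shown because they are the only products in these regions whose letters are known here. A microRNA hairpin lay within 20 kb of 3 of the 367 desert peaks (0.817%, exact interval 0.169 to 2.37%) and of 62 of the 2430 other peaks (2.55%, 1.96 to 3.26%). Mature sequences are from RefSeq (GRCm38.p6), 5′ to 3′, with the seed (bases 2 to 8) in capitals.
mmu-let-7c-5p: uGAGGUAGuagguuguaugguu
mmu-miR-99a-5p: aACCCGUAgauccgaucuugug
mmu-miR-29a-3p: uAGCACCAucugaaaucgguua
mmu-miR-29b-3p: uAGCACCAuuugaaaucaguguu
mmu-miR-205-5p: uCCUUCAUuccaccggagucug
The miR-29 pair shares the seed AGCACCA, and the other 3 seeds differ from it and from each other.

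The microRNA genes sit in 3 deserts. Mirlet7c-1 (chr16:77599657-77599750, plus strand) and Mir99a (chr16:77598936-77599000) lay 2.84 and 3.59 kb from a peak of score 53.9 at chr16:77602585-77602703, in the desert between Usp25 and Cxadr. Mir29b-1 and Mir29a, which lie together on the minus strand of chromosome 6, were 5.97 and 6.32 kb from a peak of score 58.1 between Klf14 and Mkln1. Mir205 (chromosome 1) was 13.5 kb from a peak of score 130 between Camk1g and Plxna2. The first 2 of these peaks scored at or below the lower quartile of the set (58.1), whose lowest score was 50.4. The third scored above the median of 75.02.

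Desert DNA held fewer MEF2A peaks per length than the rest of the genome. Between the first and last protein-coding gene of each chromosome, 692.8 Mb (25.7% of the span) met the rule as single positions, and this length held 362 desert peaks, or 0.523 per Mb. The remaining length held 2425 peaks, or 1.21 per Mb, so the desert density was 0.431 times that of the rest. The density was 1.28 per Mb inside protein-coding spans, 1.35 within 10 kb outside them and 1.03 from 10 to 100 kb. Regions over 100 kb from protein-coding spans but at an lncRNA gene had 1.34 peaks per Mb, a density like that beside protein-coding genes. How much of each kind of territory can be aligned was not tested.

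Within the deserts the density was lower at greater distance from genes. From 100 to 150 kb away there were 0.735 peaks per Mb (87 peaks), from 200 to 300 kb 0.647 (80 peaks), and from 300 to 500 kb 0.507 (74 peaks). At 500 kb to 1 Mb the density was 0.290 (43 peaks), and beyond 1 Mb it was 0.287 (20 peaks). Peaks with a score of 100 or more thinned out further, from 0.313 per Mb at 100 to 150 kb to 0.0877 at 500 kb to 1 Mb and 0.0575 beyond 1 Mb. All 19 autosomes had fewer peaks per Mb in deserts than outside them, with ratios from 0.264 on chromosome 11 to 0.893 on chromosome 13.

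**Figure D1:**
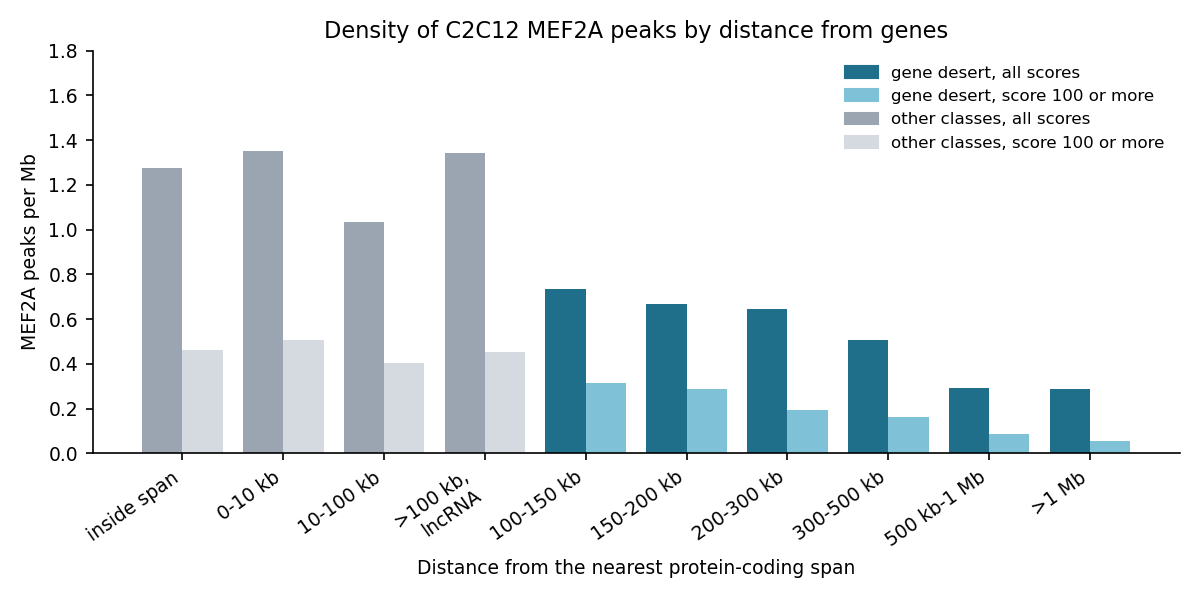
Peaks per Mb of C2C12 MEF2A peaks (vertical axis) by distance from the nearest protein-coding span (horizontal axis), with all scores in dark bars and scores of 100 or more in light bars. The desert classes (blue) fall from 0.735 to 0.287 per Mb, below the 1.03 to 1.35 per Mb of the other classes (grey).

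The chromosomes differed in how many desert peaks they carried. Chromosome 15 had the highest density, with 36 desert peaks at 1.19 per Mb, followed by chromosome 13 with 30 at 1.09 per Mb. Desert peaks made up 21.7% and 21.6% of all peaks on these chromosomes. Chromosome 5 was the lowest autosome, with 9 desert peaks at 0.254 per Mb, although its 35.4 Mb of desert territory exceeded the 30.1 Mb of chromosome 15. Chromosome X held 10 (0.179 per Mb), and chromosome Y 1 in 46.7 Mb.

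Distance from genes ran from 100.025 to 1887 kb, with a median of 243 kb (quartiles 157 and 382 kb). More than 500 kb from any protein-coding span lay 63 peaks, and 20 were beyond 1 Mb. The members nearest to the limit were a peak 100.025 kb from Sh3bp4 (score 58.1) and another 100.6 kb from Akr1e1 (score 61.4). Just outside it were peaks 98.4 kb from Osr1 (score 69.6) and 98.0 kb from Pde7a (score 98.6). At the lncRNA limit, the nearest member was 5.14 kb from Gm41499 (score 113), and the nearest peak left out was 4.86 kb from Gm30113 (score 71.4).

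Scores in deserts covered nearly the same range as elsewhere, apart from the very strongest peaks. The authors' score is higher for stronger peaks. Desert peaks scored from 50.4 to 1485, with a median of 75.02 (order-statistic 95% interval 66.6 to 82.2) and quartiles of 58.1 and 130. The other peaks had a median of 77.5 (74.6 to 80.03), quartiles of 59.4 and 140, and a maximum of 3100. Scores of 200 or more were held by 47 desert peaks (12.8%, 9.56 to 16.7%), against 15.2% of all C2C12 peaks. A score of 100 or more was held by 127 (34.6%, 29.7 to 39.7%), against 36.8% of all. Both shares lie near the share over all peaks. At 400 or more there were 13 desert peaks (3.54%) and 156 others (6.42%), and the strongest desert peak ranked 16 of 2797.

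The score also varied with distance from genes. Median score was 90.9 at 100 to 150 kb, 94.9 at 150 to 200 kb, 71.4 at 200 to 300 kb and 65.6 at 300 to 500 kb. It was 64.5 from 500 kb to 1 Mb and 57.9 beyond 1 Mb. The share scoring 200 or more went from 16.1% (9.09 to 25.5%) in the nearest class to 10.0% (1.23 to 31.7%) in the farthest, and these intervals overlap widely. Across the 367 peaks, Spearman's rho between distance and score was -0.16, a weak relation over peaks that share a library.

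**Figure D2:**
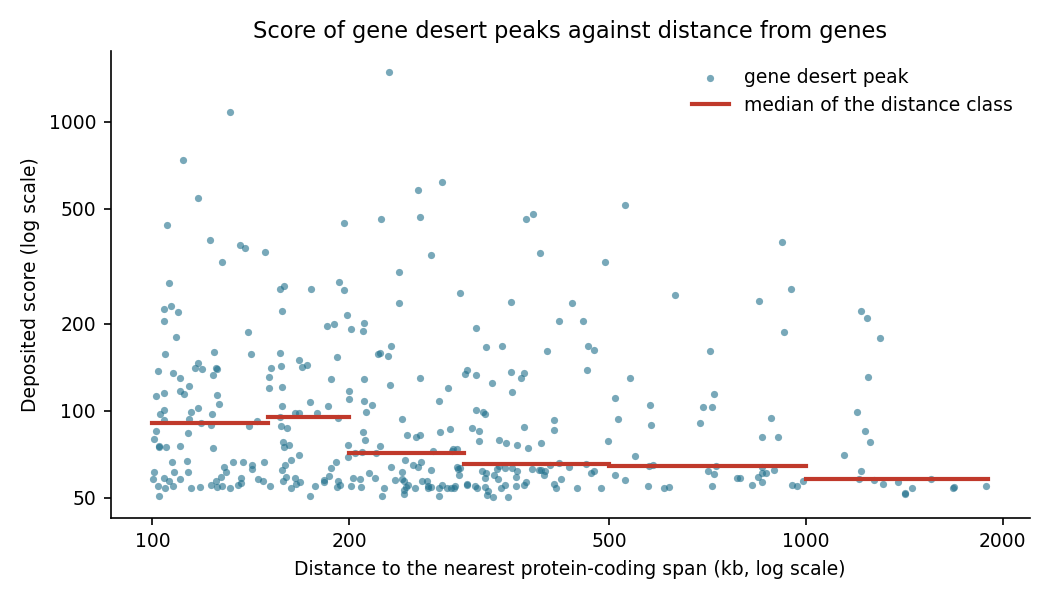
Deposited score (vertical, log scale) of each of the 367 desert peaks against distance to the nearest protein-coding span (horizontal, kb, log scale), with red lines at the median of each distance class. The highest score, 1485, lies at 230 kb, and the median is 90.9 in the nearest class and 57.9 in the farthest.

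Desert peaks were slightly narrower than the others. Widths ran from 46 to 579 bp with a median of 131 bp (order-statistic interval 125 to 142 bp), against 148 bp (143 to 153 bp) for the other peaks. The widest peaks of the list, up to 3636 bp, lay outside deserts, and 43 desert peaks (11.7%) were 300 bp or wider against 401 others (16.5%). Width followed score in both sets, with a Spearman rho of 0.74 over the 367 desert peaks and 0.73 over the 2430 others. Median desert width was 114 bp below a score of 60, 127 bp from 60 to 100, 202 bp from 100 to 200, 311 bp from 200 to 400 and 397 bp at 400 or more. The others were wider within each of these classes, at 116, 132, 212, 333 and 475 bp.

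A small group of desert peaks was narrow for its score. Under 80 bp wide with a score of 100 or more were 7 desert peaks (1.91%) and 23 others (0.947%). The strongest was a peak of 73 bp and score 388 at chr18:3639075-3639147, 123 kb from Bambi, which encodes a pseudoreceptor that dampens TGF-beta signalling. A peak of 50 bp (score 187) lay between Bcl11a, a zinc finger repressor, and Fancl, and one of 48 bp (score 168) between Tle4, a Groucho corepressor, and Psat1. The other 4 scored from 103 to 130.

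**Figure D3:**
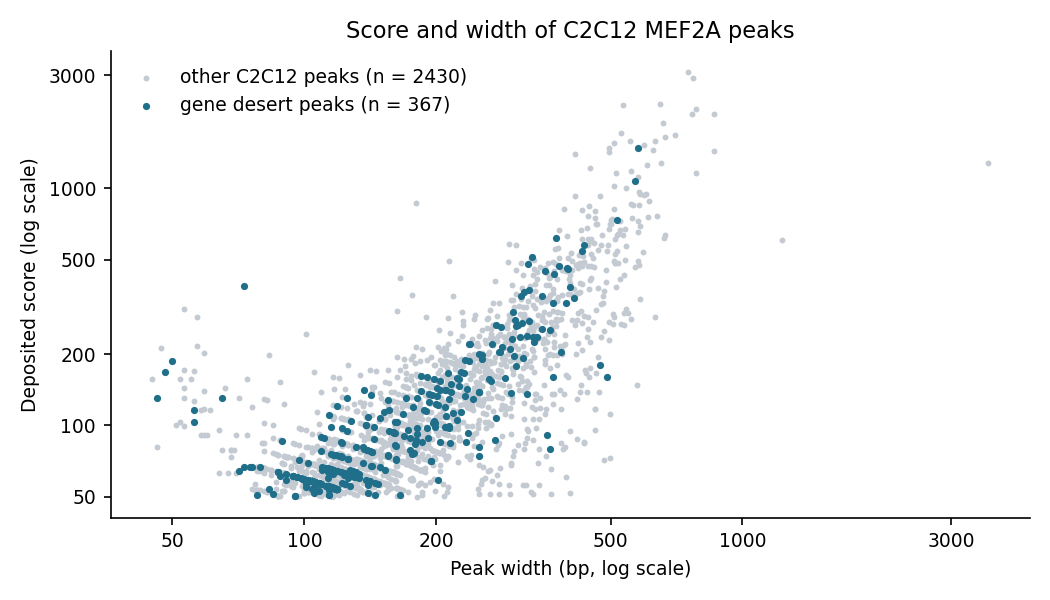
Deposited score (vertical, log scale) against peak width (horizontal, bp, log scale) for the 367 desert peaks (blue) and the 2430 other C2C12 peaks (grey). Both sets rise along one band, and a few narrow peaks under 80 bp stand to the left of it.

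The strongest desert peak (score 1485, 579 bp) lay at chr14:9319682-9320260 (mm10), 230 kb to the left of Fhit, a diadenosine hydrolase gene at a common fragile site, and 653 kb to the right of Cfap20dc. The second (score 1076, 569 bp), at chr3:119916301-119916869, was 132 kb from the 5′ end of Ptbp2, the neuronal paralogue of a polypyrimidine tract splicing regulator, and 1239 kb from Rwdd3. The third (score 739, 517 bp), at chr1:183921254-183921770, was 111 kb from 1700056E22Rik and 484 kb from Hhipl2. These 3 deserts carry no list gene on either side, and a close pair in the third desert is described with the runs below.

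The fourth (score 619, 375 bp), at chr1:41133833-41134207, lay 277 kb from the 3′ end of Tmem182, a membrane protein gene of muscle whose own span held 2 further peaks. Its other neighbour was Pou3f3, a neural transcription factor gene, at 1562 kb. The tenth (score 461, 397 bp), at chr1:13925937-13926333, was 243 kb from Eya1, a coactivator in muscle progenitors, and 224 kb from Xkr9. Eya1 also had a peak inside its span. The ninth (score 469, 381 bp), at chr13:6127401-6127781, was 257 kb from the 3′ end of Klf6, a zinc finger gene of the early response, and 420 kb from Pitrm1, a mitochondrial peptidase gene.

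The remaining 4 of the first 10 are given with the genes on both sides, whichever was nearer. The fifth (score 579, 436 bp), at chr2:117597568-117598003, was 514 kb from Thbs1, encoding the matricellular protein thrombospondin 1, and 255 kb from Rasgrp1, a Ras exchange factor gene. The sixth (score 542, 430 bp), at chr13:16739830-16740259, was 708 kb from Inhba, encoding the activin A subunit, and 117 kb from Sugct. The seventh (score 514, 331 bp), at chr4:64576430-64576760, was 529 kb from the 5′ end of Tnc, encoding tenascin C, and 547 kb from Pappa, a protease gene that frees insulin-like growth factors. The eighth (score 479, 324 bp), at chr14:36479962-36480285, lay between 4930474N05Rik (383 kb) and Ccser2 (395 kb).

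The peaks were spread over many deserts. Of 1646 gaps between neighbouring protein-coding spans with some territory that meets the rule, 221 (13.4%) held a desert peak. A single peak was found in 151 of them, 2 in 38 and 3 or more in 32, and the last group held 135 of the peaks. Gaps with a peak were longer, with a median of 851 kb against 391 kb. Among gaps of 200 to 400 kb, 32 of 765 (4.18%) held a peak, against 72 of 485 (14.8%) at 400 to 800 kb, 73 of 274 (26.6%) at 800 to 1600 kb and 44 of 122 (36.1%) above that. Counted per Mb of desert territory the order was the opposite, with 0.765, 0.673, 0.563 and 0.351 peaks.

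The 3697 kb on chromosome 2 between Zeb2, a zinc finger repressor of epithelial genes, and Acvr2a, an activin receptor gene, held 9 desert peaks. They scored from 58.0 to 328, and 5 lay within 166 to 631 kb of the 5′ end of Zeb2, among them the 3 that scored 130, 252 and 328. Another 2 were at 1208 and 1254 kb, and the last 2 stood 245 and 333 kb from Acvr2a, with no desert peak between these 2 pairs. The desert peak nearest Zeb2 (score 98.3) was 72 bp from Vis1, annotated as a miscellaneous RNA. C2C12 peaks left out by the rule are not counted in this or the following gaps. The peak of score 328 had such a peak 22.5 kb away.

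On chromosome 15, 9 desert peaks also lay in the 1786 kb between Myc, the growth-promoting transcription factor gene, and Gsdmc, a gasdermin gene. They scored from 60.7 to 235. Peaks of score 135, 161 and 235 stood 371, 402 and 438 kb to the right of Myc, about 31 and 36 kb apart. A run of 3 weak peaks (63.9, 60.7 and 81.4) occupied 351 bp at 929 kb, and a wide peak of 491 bp (score 161) lay at 1071 kb.

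The gap of 2952 kb between Nmbr and Cited2, a coactivator-binding regulator gene, on chromosome 10 held 8 desert peaks scoring 61.7 to 239. Of these, 4 lay from 1736 to 1807 kb beyond Nmbr. They included the strongest member at more than 1 Mb from any protein-coding span (score 221, 239 bp, chr10:16508288-16508526). In the 3820 kb between Dsel and Cntnap5a on chromosome 1 there were 7 desert peaks, with scores from 51.3 to 384. All of them lay 794 to 1417 kb from Dsel, leaving 2402 kb before Cntnap5a with no desert peak. The shorter gap of 865 kb between Nyap2 and Irs1, the insulin receptor substrate gene, held 6. The strongest scored 459 and was 372 kb from Nyap2, 493 kb from Irs1 and 1.03 kb from the pseudogene Gm5530. The desert between Ptger4 and Dab2 on chromosome 15 also held 6 desert peaks, and none of those reached 100 (highest 92.6).

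**Figure D4:**
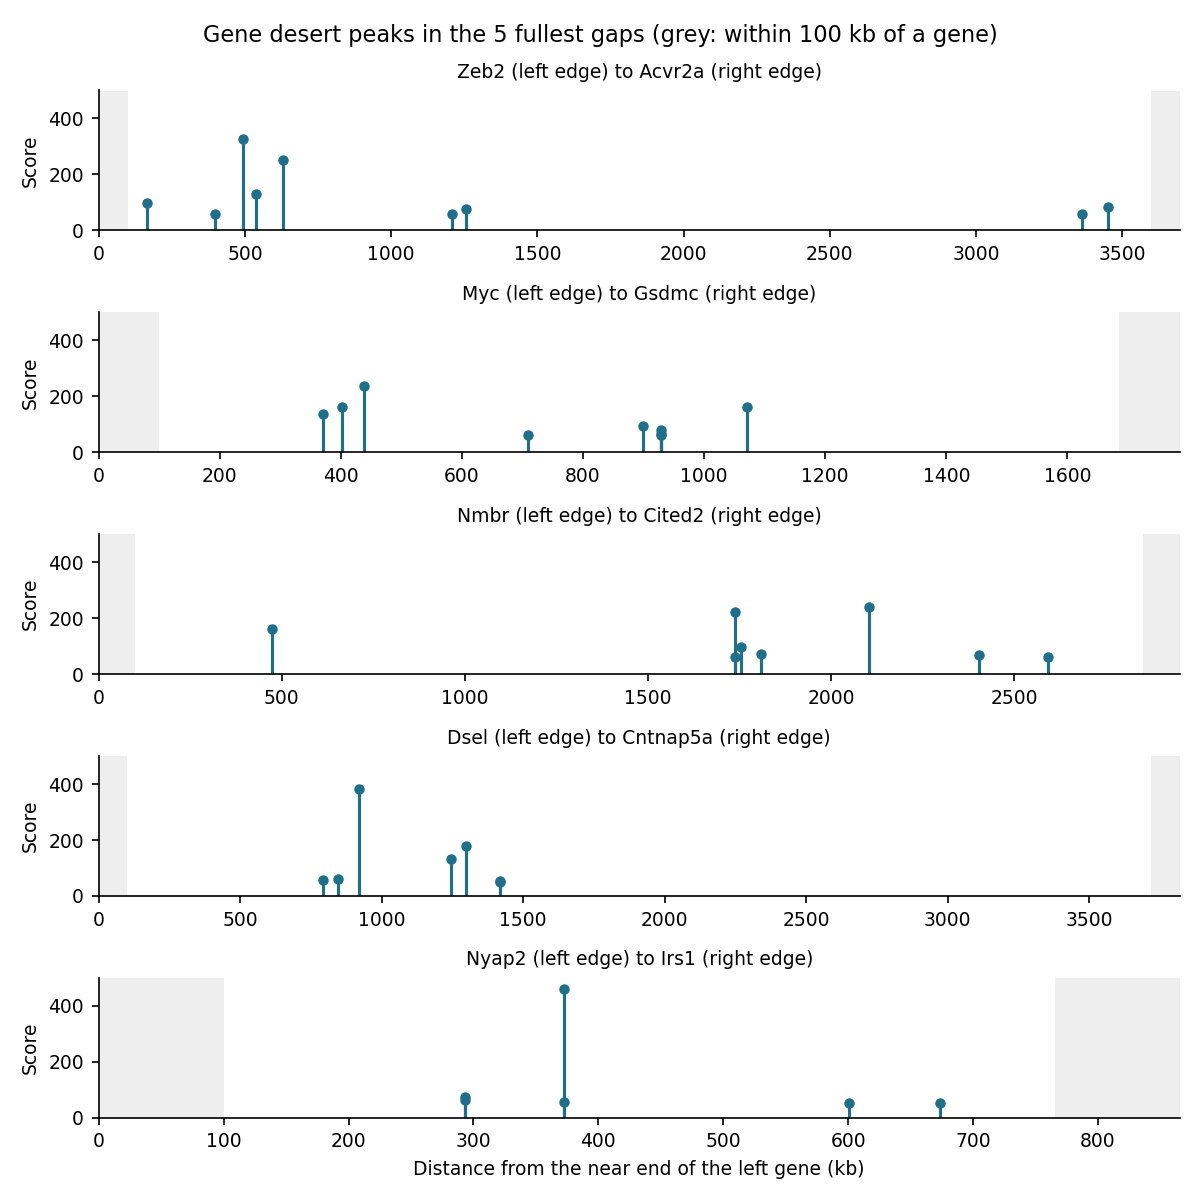
Desert peaks in the 5 fullest gaps, drawn as stems with the deposited score (vertical) at their distance in kb from the near end of the left gene (horizontal), with grey bands within 100 kb of either gene. In the Dsel to Cntnap5a gap all 7 lie between 794 and 1417 kb, while in the Nmbr to Cited2 gap a single peak stands at 473 kb and the other 7 beyond 1736 kb.

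Close neighbours were about as frequent in deserts as elsewhere. Of the 367 peaks, 59 (16.1%, 12.5 to 20.2%) lay within 1 kb of another C2C12 peak, against 15.6% of all C2C12 peaks, and 70 (19.1%, 15.2 to 23.5%) within 10 kb, against 21.8% of all. Joining desert peaks under 1 kb apart gave 27 runs with 58 peaks, of which 23 were pairs and 4 were runs of 3. The smallest gap within a run had a median of 40 bp. Desert peaks with such a neighbour had a median score of 65.9 and a median width of 122 bp, against 77.8 and 139 bp for the 308 without. Among the other C2C12 peaks the medians were 78.2 and 136 bp with a neighbour, and 77.5 and 151 bp without. Whether a run holds separate sites or a single region split by the peak caller was not tested.

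All 4 runs of 3 were on chromosome 15. They lay 104 kb from Cdh18, a cadherin gene (scores 54.2 to 157), and 102 kb from Trib1, a pseudokinase gene (75.02 to 137). Another was 929 kb from Myc and 856 kb from Gsdmc (60.7 to 81.4). The last was 242 kb from Dab2, an endocytic adaptor gene (51.6 to 57.1). A score of 200 or more was reached in 4 runs, each a pair of a strong and a weak peak. These pairs were 459 with 56.6 between Nyap2 and Irs1, and 270 with 64.9 between Papss1 and Dkk2. The others were 221 with 62.0 between Nmbr and Cited2, and 204 with 65.9 between Mc2r and Tcf4. In 12 of the 27 runs every peak scored below 100, as did the pair of 58.4 and 56.0 between Hhipl2 and 1700056E22Rik.

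Desert peaks bordered 425 distinct protein-coding genes, or 1.94% of the 21887 genes, while 2738 genes border a gap with desert territory. Members of 8 gene lists were looked up among them, and the density of desert peaks in the gaps beside each list was set against the 0.523 per Mb of all gaps. A count of flanking genes also depends on how many members of a list border deserts, so both are given.

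Extracellular matrix genes had the highest density of desert peaks beside them. Of 58 genes, 19 border a desert and 6 (10.3% of the list, 31.6% of those at a desert) flanked a peak, against 15.4% of all genes at a desert. The 21 gaps beside them held 18 peaks in 6.47 Mb, or 2.78 per Mb, and 2.27 per Mb without the Tnc to Pappa gap, which held the most. Tnc flanked 5 (top score 514), Thbs1 4 (579), and Adamts9 (133) and Adamts5 (98.6), genes of matrix proteases, 3 each. The 4 peaks flanked by Thbs1 lay 445 to 609 kb from it, and all were nearer to Rasgrp1 on the other side. Has2, the hyaluronan synthase gene, flanked 2 (374), and Col3a1, encoding a fibrillar collagen, 1 (57.5). Tnc had 3 other C2C12 peaks within 100 kb of its span, Has2 5, Adamts5 3, Col3a1 3 and Thbs1 1, while Adamts9 had none. The list was written knowing that matrix genes have many C2C12 peaks near their spans, so its desert values are no independent evidence.

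Secreted growth factors and ligands gave 7 of 73 genes (9.59%, and 17.9% of the 39 at a desert). The latter share lies near the 15.4% of all genes at a desert. The gaps beside the list held 16 peaks at 1.35 per Mb. Inhba flanked 5 peaks, which lay 615 to 708 kb from its 3′ end within 93.3 kb and scored from 63.4 to 542. All 5 were nearer to Sugct on the other side, the closest at 117 kb from it. Without the Inhba to Sugct gap the density of the list was 0.966 per Mb. Cxcl12, a chemokine gene, flanked a peak of score 256 at 363 kb, Fgf20 one of 158, Bmp4 3 (top 141) and Pdgfd, a platelet-derived growth factor gene, a close pair of 130 and 75.3 at 110 kb. Edn1, encoding endothelin 1, flanked 3 weaker peaks (54.1 to 92.9). None of these named genes had any C2C12 peak within 100 kb of its span.

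Developmental transcription factor genes gave 17 of 101 (16.8%, and 22.1% of the 77 at a desert), against 15.4% of all genes at a desert. The gaps beside the list held 37 peaks at 0.874 per Mb (0.710 without the Zeb2 gap). Osr1, a zinc finger gene of limb connective tissue, flanked 4 peaks, the strongest of score 365 at 650 kb. Tbx15, a T-box gene, flanked a peak of score 201 at 320 kb, and Bcl11a one of 187. Nfib flanked 4 peaks (66.2 to 168), 3 of them within 53.5 kb, and Runx1, a runt-domain gene, 4 (56.9 to 120). Sox5, Sall1, Zeb1, Maf, Irx1, Gata6, Foxp1, Tbx18 and Sox3 flanked 1 or 2 each, with top scores from 53.9 to 138.

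Neuronal adhesion and axon guidance genes flanked the most desert peaks in number, yet at a density below that of all gaps. Of 85 genes 74 border a desert, and 30 flanked a peak. These 30 are 35.3% of the list and 40.5% of those at a desert, against 15.4% of all genes at a desert. The 108 gaps beside the list are long (median 1238 kb against 428 kb for all) and held 42 peaks in 139.9 Mb, or 0.300 per Mb. Over all gaps of 800 to 1600 kb the density was 0.563 per Mb, and above 1600 kb it was 0.351. The part of gap length in the lower density of the list was not tested. At scores of 100 or more they held 10, or 0.0715 per Mb against 0.183 in all gaps. The highest scores belonged to peaks flanked by Cntnap5a (384, at 2899 kb), Slitrk1 (301, at 239 kb), Pcdh10, a protocadherin gene (265, at 2625 kb), and Cdh18 (157, at 104 kb). The other 26 genes had top scores from 50.4 to 157. The member farthest from any protein-coding span lay 1887 kb from Tenm3 with a score of 54.7.

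The muscle lists gave few genes beside desert peaks in number, with 3 or fewer each. Apart from the sarcomere list, their shares were above the 1.94% of all protein-coding genes. They were also above the 15.4% of those at a desert, but from 3 genes or fewer per list, and the differences were not tested. Of 65 sarcomere and contractile genes, 3 border desert territory and none flanked a peak. In the costamere list 3 of 42 (7.14%, and 25% of the 12 at a desert) did so: Sntb1, a syntrophin gene (score 374 at 136 kb, the peak also counted for Has2), Lama2, a laminin chain gene (108 at 247 kb), and Dmd, encoding dystrophin (53.9 at 751 kb). In the list of 34 myogenic regulators, which by mistake includes the myocilin gene Myoc (no desert peak beside it), 3 (8.82%, and 25% of the 12 at a desert) did, namely Eya1 with 2 peaks (461 and 143), Tcf4, an E-protein gene (204 and 65.9), and Celf2, a splicing regulator (55.5). Of the 30 MEF2 family and cofactor genes only Ppargc1a (3.33%, and 16.7% of the 6 at a desert), encoding the coactivator PGC-1 alpha, flanked desert peaks. They were 2, with scores of 138 and 62.8 at 463 and 381 kb, and 4 more peaks lay inside its span. Densities beside these 3 lists were 0.625, 0.894 and 0.648 per Mb, from 5 peaks or fewer each, and 0.468, 0.555 and 0 per Mb without the gap that held the most. They were thus above the 0.523 per Mb of all gaps with that gap, while without it only the myogenic list was. Median gap lengths beside the 3 lists were 409, 438 and 418 kb, and all gaps of 400 to 800 kb held 0.673 per Mb. Above that value stood only the myogenic list with its fullest gap. The part of gap length was not tested.

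**Figure D5:**
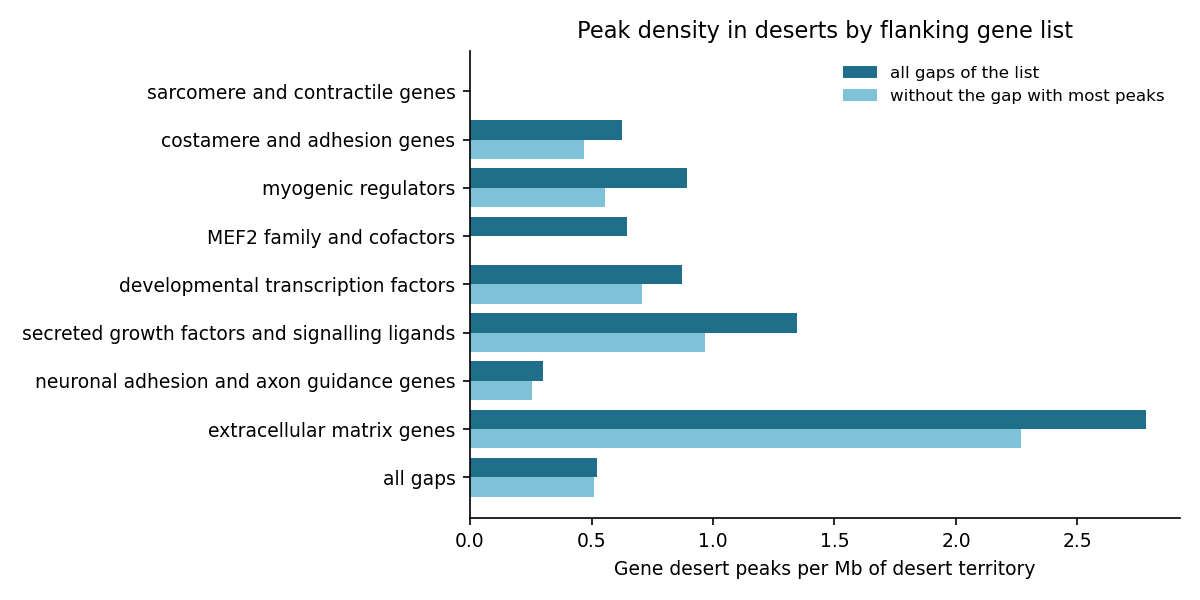
Desert peaks per Mb of desert territory (horizontal) in the gaps beside each gene list (vertical), with all gaps of the list in dark bars and without the gap holding the most peaks in light bars. Matrix genes have 2.78 and 2.27 per Mb, neuronal adhesion genes 0.300 and 0.257, and all gaps 0.523.

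Genes that flanked a desert peak more often had a closer peak as well. Of the 425, 142 (33.4%, 28.9 to 38.1%) had another C2C12 peak inside the span or within 100 kb of it, and 59 (13.9%) had one inside. Of the 2315 genes that border desert territory without a desert peak, 464 (20.04%, 18.4 to 21.7%) had a peak within 100 kb and 198 (8.55%) one inside. Over all protein-coding genes, with a median span of 17.2 kb, these shares were 22.0% and 4.57%. The median span was 58.6 kb in the first group and 33.4 kb in the second, and the part of gene length in this difference was not tested.

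Flanking genes faced the peaks with either end at similar shares. Of 535 flanks with a known strand, 284 (53.1%, 48.8 to 57.4%) had the 5′ end facing the peak. Counted once per gap edge, the share was 51.5% (46.0 to 57.1%) in gaps with a desert peak and 51.6% (49.5 to 53.7%) in gaps without.

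The deserts are empty of protein-coding and lncRNA genes by the rule, but they contain other annotations. Within 50 kb of 112 of the 367 peaks (30.5%), and within 5 kb of 18 (4.90%), lay a gene of another class. No matching share of the other C2C12 peaks is available here, so these counts describe the desert set only. Peaks overlapped such a gene in 3 cases, all pseudogenes. Scores were 104.9 and 64.5 in Gm13916, between Kcna4 and Mettl15 on chromosome 2. The third, in Gm9540, scored 54.95 and was 151 kb from Cep162 and 296 kb from Tbx18. With all annotated genes in place of protein-coding ones in the rule, 97 peaks remained.

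Some weak desert peaks share their score to the last digit. The value recurred for 133 of the 367 (36.2%), and below a score of 60 for 83 of 110. Ties were counted among desert peaks only, so whether the rest of the list has them as often was not tested. The scores 54.14 and 54.41 each occurred 9 times. Differences in rank among the weakest peaks therefore carry little information.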

How the data were processed

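MEF2A ChIP-exo peaks of 1 C2C12 library were analysed, grouped by the antibody and organism in the title. The authors deposited a score per peak in a file without header, and no source used here gives its scale. Per the submitters' processing notes, MACS 1.4.2, BWA 0.5.9, SAMtools, Picard and CASAVA 1.7.0 were used with the builds mm10 and rn5, without stated settings. Whether IgG served as control is not stated, and the IgG and rat libraries were not analysed here. File starts count from 0 and were raised by 1.

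Spans came from the RefSeq table of GRCm38.p6 (21887 protein-coding and 12727 lncRNA genes). Strand was taken from the RefSeq promoter table, which matched 17492 of the protein-coding genes. Desert territory was counted between the first and last protein-coding gene of each chromosome, which leaves out 5 members. Distances run from edge to edge. The distance and territory functions were tested on simulated data. The members, the 8 lists (488 genes, all found) and the tests were chosen with earlier results of these data known. Some list members are counted but not reported by name here. Named are the flanks of the 10 strongest desert peaks and of the 5 fullest gaps, and list members, with values for the 4 strongest in a list. Further genes and peaks given with values, including those at runs, narrow peaks, the Ptger4 to Dab2 gap, microRNAs and pseudogenes, were chosen after their values were seen. Alternatives changed the distance limits, the annotation and the peak set. No genome was used, so motifs were not searched. Software was scipy 1.17.1, pandas 2.3.3, numpy 2.4.6 and matplotlib 3.10.9 under Python 3.11.15.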

Additional observations from a re-analysis of the deposited data

How the results depend on the processing

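The 367 desert peaks became 222 with a limit of 200 kb, 97 with all annotated genes in the rule and 127 at a score of 100 or more, and stayed within 1.5 times under the other 4 settings. Density relative to the rest was below 1 in all 7 alternatives, which were added after seeing the data, and ranged from 0.340 (all annotated genes) to 0.513 (no lncRNA condition), with 0.382 at 200 kb. The median score was 65.1 at 200 kb. The median width was 123 bp with all annotated genes, 147 bp with peaks under 1 kb apart merged and 237 bp at a score of 100 or more. The share within 1 kb of another peak was 8.25% with all annotated genes and 3.15% at a score of 100 or more, where 100 gaps in place of 221 held a peak. The share past the score limit was 34.6% at 100 in place of 200. With the nearer flank only, 1 costamere, 11 developmental, 4 secreted, 16 neuronal and 3 matrix genes were left, fewer by construction. The motif alternatives were not run, for lack of a genome. No paired analysis was possible because there is only 1 library for each group. Without a replicate or read counts, the weak peaks could not be checked for recurrence.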

Other observations

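The 5 desert peaks beyond the first or last protein-coding gene of a chromosome lie at the lower-coordinate ends of chromosomes 9 and 16. The single peak on chromosome 9 (chr9:3010501-3010578) scored 50.95 and stood 325 kb from Alkbh8, a tRNA methyltransferase gene. The 4 on chromosome 16 fall within 11.7 kb, from 336 to 348 kb to the left of Olfr161, an olfactory receptor gene. Their scores were 77.55, 63.3, 79.0 and 62.7, and their widths 143, 131, 139 and 116 bp. This was the largest number of desert peaks joined by gaps under 10 kb.

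Beyond 1 Mb from any protein-coding span, 4 of the 20 peaks scored 100 or more. A peak of score 221 lay between Nmbr and Cited2, and one of 209 at chr8:6345829-6346123 between Slc10a2, a bile acid transporter gene (1241 kb), and Efnb2, an ephrin gene (2271 kb). The other 2 (178 and 130) were 53.2 kb apart, between Dsel and Cntnap5a. The remaining 16 scored from 51.3 to 98.8, with neighbours such as Cdh8 and Cdh11, Pcdh20 and Pcdh9, and Slc39a10 and Tmeff2.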
